A study of Mus musculus with 8 samples.

Results

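The genes described here are 9 markers of mesothelial and epithelial cells, Msln, Upk3b, Krt7, Krt8, Krt18, Krt19, Epcam, Sox9 and Cdh1, out of the 22180 genes measured. They were taken by name: a probe set counted for a gene when its annotation gave that symbol alone, and probe sets of one gene were averaged. All 9 genes were measured, 7 by 1 probe set each and Krt18 and Cdh1 by 2 probe sets each. The arrays were made from EMS404 cells, a single mouse cell line used in the study as a myofibroblastic hepatic stellate cell (HSC) line and grown in DMEM with 5% FCS. One group received 20 nM of an siRNA against the transcription factor Basonuclin 2 (siBNC2) and the other 20 nM of a non-targeting siRNA (siCTRL), both with lipofectamine and both collected 48 h later. Each group had 4 RNA samples, and each sample was hybridised to its own array. The labels name no separate cultures, so the p-values given here measure the spread between these samples.

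The mesothelium is the flat cell layer that covers the liver and the walls of the body cavities. It is unusual in carrying epithelial keratins and, at the same time, mesenchymal intermediate filaments such as vimentin, and in the developing and injured liver it can give rise to stellate cells and myofibroblasts. Epithelial cells of the bile duct carry a fuller set of traits: E-cadherin and EpCAM at their contacts, paired keratins in their cytoplasm, and the transcription factor SOX9. Basonuclin 1 (Bnc1), the paralogue of the targeted factor, is itself a gene of mesothelial and squamous epithelial cells.

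Values are log2 signals after RMA, the normalization used by the authors, so a difference of 1.00 is a doubling. Signals of different probe sets do not rank genes by abundance. A background level was therefore set from 1429 odorant, vomeronasal and taste receptor genes, which most cells outside the sensory organs lack. Their median was 5.06, and their 95th percentile, 6.87, was taken as the threshold above which a gene was called above background. Over all genes, 44.6% lay above it. Array medians ran from 6.45 to 6.50 and the pairwise r across genes from 0.983 to 0.996, and precision is limited by the number of arrays.

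The labelled cell type was set against its own markers first. Of 14 stellate and mesenchymal markers 8 were above background (57.1%), among them Col1a1 (18.1), Vim (16.3), Acta2, Pdgfra, Pdgfrb, Hand2 and Lhx2. Des (5.88), which encodes desmin, and Lrat (5.34), which encodes the enzyme that stores retinol as ester, were not. Gfap, Reln, Ngfr and Hgf were not either. The paper states that myofibroblast markers were checked in EMS404 cells, and it stained the cells for desmin and ACTA2 by flow cytometry. A transcript below this threshold does not show that its protein was lacking. None of 8 hepatocyte markers and none of 8 endothelial markers was above background, and of 8 macrophage and leukocyte markers only Cd14 (9.72) and Cd68 (8.78) were.

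Of the 9 genes, 4 were above background and 5 were not, a share of 44.4% beside 44.6% of all genes. Upk3b, which encodes a uroplakin, a membrane protein of the bladder lining and of mesothelium, was far above it with a mean of 15.7 over the 8 arrays. Krt8, which encodes the type II keratin of simple epithelia, Msln, which encodes the mesothelial surface glycoprotein mesothelin, and Sox9, which encodes a transcription factor of bile duct and cartilage, were above it by less than 1.00, with means of 7.40, 7.24 and 7.19. Krt18, Epcam, Cdh1, Krt7 and Krt19 had means of 5.82, 5.75, 5.62, 5.20 and 4.94. Set array by array against the same percentile of that array, Upk3b and Krt8 were above background on 8 of 8 arrays, Sox9 on 7 and Msln on 6, while Krt18, Epcam, Cdh1, Krt7 and Krt19 were above it on 0. With the 99th percentile of the receptor genes (8.32) as the threshold only Upk3b passed, and with the 40th percentile of all genes (5.66) 6 of the 9 genes did.

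**Figure D1:**
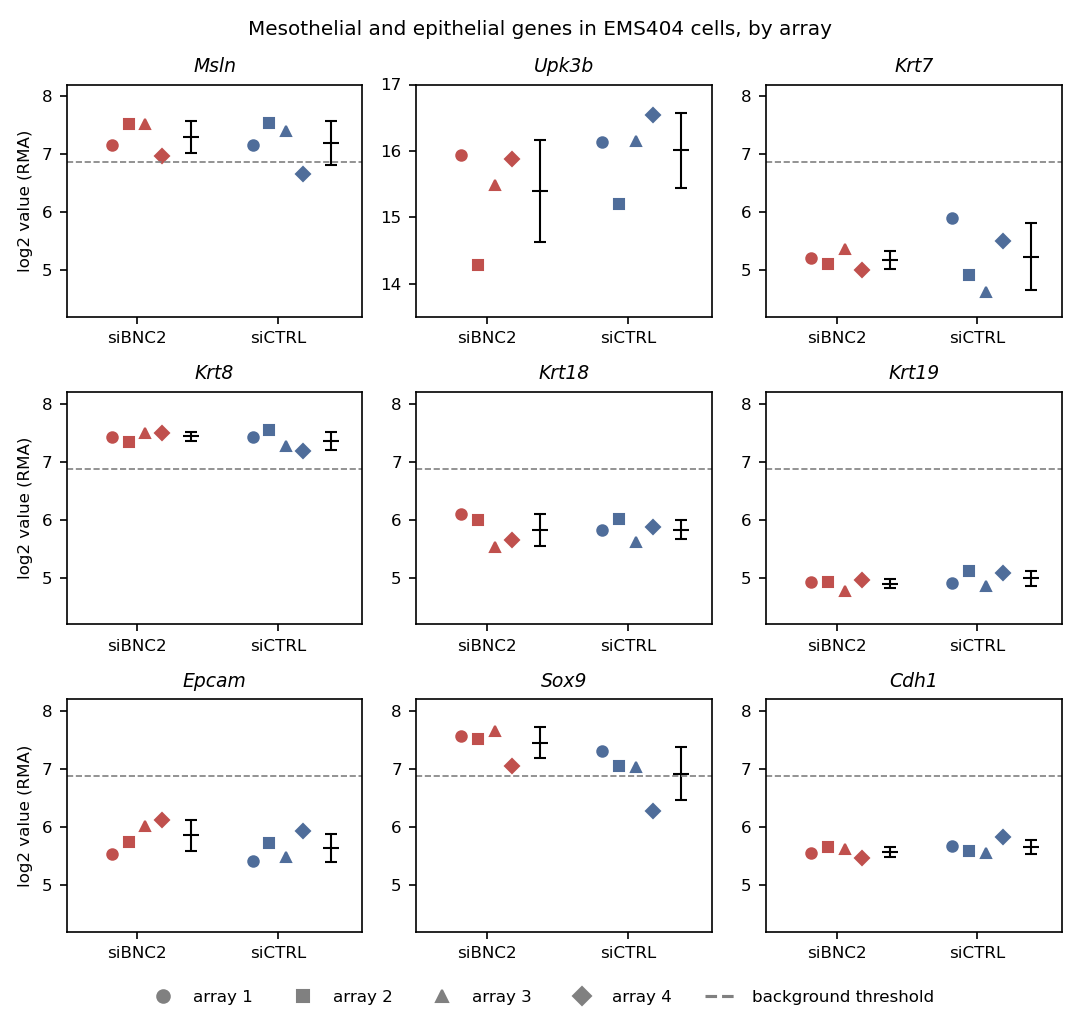
Log2 value of the 9 genes on each array, with siBNC2 arrays in red and siCTRL arrays in blue, a marker shape for each array number, and bars for the group mean ± SD (n = 4 each). The dashed line is the background threshold of 6.87; the Upk3b panel has its own axis, since its values of 14.28 to 16.53 lie far above that line.

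Upk3b read 15.94, 14.28, 15.49 and 15.88 on the siBNC2 arrays, against 16.14, 15.20, 16.15 and 16.53 on the siCTRL arrays. In both groups the array numbered 2 was the lowest, and the groups overlapped. The mean was 15.40 ± 0.77 in siBNC2 and 16.01 ± 0.57 in siCTRL (SD, n = 4 each), a difference of −0.61 ± 0.39 (SE) with a 95% interval of −1.47 to 0.25. The p of limma was 0.146, adjusted over all genes 1.00, and that of an exact permutation (two-sided, as throughout) was 0.314. Within each array number the siBNC2 value was the lower. The share of all genes with the same direction within each number was not counted. With the array number fitted as a block, the limma p was 0.0028 (adjusted p 0.706). Whether the numbers pair the samples is not settled. Without siBNC2 array 2 the difference was −0.24, and without siCTRL array 2 it was −0.88.

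Other mesothelial genes had high signals too. Of 19 other genes listed as mesothelial markers, 12 were above background, which is 63.2% beside 44.6% of all genes. The list is broad and includes genes not confined to mesothelium, such as Cav1, Fmod and uroplakins of the bladder lining. The share is thus not a measure of mesothelial identity. They include Gpm6a (16.3), which encodes a neuronal and mesothelial membrane glycoprotein, Upk1b (16.1), which encodes a tetraspanin partner of the uroplakins, Pdpn (15.1), which encodes podoplanin, Bnc1 (14.3), Tm4sf1 (13.8), Wt1 (12.5), which encodes the Wilms tumour transcription factor, and Lrrn4 (10.4), which encodes a leucine-rich repeat membrane protein. The 7 that were not above background include Muc16 (4.27) and Calb2 (4.62), which encode the clinical mesothelial markers CA-125 and calretinin, Aldh1a2 (4.48), and the uroplakins Upk1a, Upk2 and Upk3a. Among the 5 uroplakin genes, the signal above background thus came from Upk1b and Upk3b.

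None of the 19 mesothelial markers passed limma at an adjusted p of 0.05. None did so at an unadjusted p of 0.05 either, beside 3.19% of all genes. Their median difference between siBNC2 and siCTRL was −0.16, beside 0.01 over all genes. The mean was lower in siBNC2 for 12 of the 19, beside 10666 of all 22180 genes. Lrrn4 read 10.40, 8.55, 10.09 and 10.51 on the siBNC2 arrays and 11.13, 9.91, 10.74 and 11.59 on the siCTRL arrays. As with Upk3b, array 2 was the lowest of each group, and the groups overlapped. The difference was −0.95 ± 0.46 (SE; limma p = 0.0662, adjusted p = 1.00; exact permutation p = 0.143). The smallest limma p of the list was that of Cldn15, which encodes a claudin and was not above background (6.74). It read 6.37, 5.91, 6.32 and 7.13 on the siBNC2 arrays and 7.10, 6.44, 7.12 and 7.50 on the siCTRL arrays, with overlapping groups and a difference of −0.61 ± 0.28 (SE; limma p = 0.0551, adjusted p = 1.00; exact permutation p = 0.114). Tmem151a, second to Lrrn4 in p among the markers above background, differed by −0.28 ± 0.15.

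Msln read 7.16, 7.51, 7.52 and 6.96 on the siBNC2 arrays, against 7.15, 7.55, 7.40 and 6.67 on the siCTRL arrays. Array 4 was the lowest in both groups, and the groups overlapped. The mean was 7.29 ± 0.28 in siBNC2 and 7.19 ± 0.39 in siCTRL, a difference of 0.10 ± 0.21 (SE) with a 95% interval of −0.37 to 0.57 (limma p = 0.643, adjusted p = 1.00; exact permutation p = 0.714). Without siCTRL array 4 the difference was −0.08. These levels lie close to background, where a change in transcript is compressed on the log2 scale.

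Keratin filaments of simple epithelia are built from pairs of a type II and a type I keratin. Krt8 (type II) and Krt18 (type I) form the first pair of the embryo and of the hepatocyte, and Krt7 (type II) and Krt19 (type I) mark the bile duct and the mesothelium. Only 1 partner of these pairs was above background. Krt8 read 7.43, 7.33, 7.49 and 7.49 on the siBNC2 arrays and 7.42, 7.55, 7.27 and 7.19 on the siCTRL arrays. The siBNC2 values lay within the range of the siCTRL values. The difference was 0.08 ± 0.12 (SE) with a 95% interval of −0.19 to 0.34 (limma p = 0.518, adjusted p = 1.00; exact permutation p = 0.343).

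Krt18 read 6.10, 5.997, 5.54 and 5.64 on the siBNC2 arrays and 5.82, 6.005, 5.62 and 5.87 on the siCTRL arrays, with groups that overlapped and a difference of −0.01 ± 0.16. Its 2 probe sets had values of 4.90 to 5.76 and of 6.11 to 6.60, so neither reached the threshold, and their differences of 0.07 and −0.09 had opposite signs. Krt7 read 5.22, 5.11, 5.36 and 5.00 on the siBNC2 arrays and 5.90, 4.92, 4.62 and 5.51 on the siCTRL arrays. The siBNC2 arrays lay inside the wider siCTRL range, and the difference was −0.07 ± 0.25. Krt19 lay between 4.78 and 4.96 in siBNC2 and between 4.86 and 5.12 in siCTRL, a difference of −0.09 ± 0.11.

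Across the whole keratin family, 3 of 49 genes were above background: Krt8, Krt80 (7.38) and Krt14 (7.33). At an unadjusted p of 0.05, 2 of the 49 were higher (Krt80 and Krt35) and 2 were lower (Krt1 and Krt75) in siBNC2, beside 3.19% of all genes in either direction. Of these 4 only Krt80 was above background; Krt35, Krt1 and Krt75 had means of 5.001, 5.91 and 4.78. Krt80 encodes a type II keratin of cell borders, and Krt14 the type I keratin of basal epithelial cells. Krt80 read 7.83, 7.90, 7.74 and 7.33 on the siBNC2 arrays, against 7.14, 7.07, 7.36 and 6.68 on the siCTRL arrays. Array 4 was lowest in both groups, and siBNC2 array 4 lay just under siCTRL array 3, which is the only overlap. The difference was 0.64 ± 0.18 (SE; limma p = 0.00498, adjusted p = 1.00; exact permutation p = 0.0571). Fam83h, which encodes a protein that organises keratin filaments, read 7.63, 7.71, 7.78 and 7.89 on the siBNC2 arrays and 7.96, 8.19, 8.10 and 8.29 on the siCTRL arrays. All siBNC2 values lay below all siCTRL values, as they did, in one direction or the other, for 2.16% of all genes. The difference was −0.38 ± 0.12 (SE; limma p = 0.00971, adjusted p = 1.00; exact permutation p = 0.0286, the smallest that 4 against 4 arrays can give).

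Of the 15 measured keratin partners and scaffold genes, 7 were above background (46.7%, beside 44.6% of all genes). They include Jup (11.1) and Plec (11.1), which encode plakoglobin and the linker plectin, and Pkp2 (8.61), which encodes plakophilin 2. Dsp (4.88), Ppl (5.41) and Evpl (5.06), which encode the desmosomal linkers desmoplakin, periplakin and envoplakin, were not above background. At an unadjusted p of 0.05, 1 of the 15 was higher and 1 was lower in siBNC2, the pair of genes just described, beside 3.19% of all genes in either direction.

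EpCAM and E-cadherin join epithelial cells to each other. Epcam read 5.54, 5.75, 6.01 and 6.13 on the siBNC2 arrays and 5.41, 5.73, 5.49 and 5.92 on the siCTRL arrays. The groups overlapped, and the difference was 0.22 ± 0.17 (SE; limma p = 0.222, adjusted p = 1.00; exact permutation p = 0.229). Cdh1, which encodes E-cadherin, read 5.55, 5.65, 5.62 and 5.47 on the siBNC2 arrays and 5.68, 5.60, 5.55 and 5.82 on the siCTRL arrays, a difference of −0.09 ± 0.11. Its 2 probe sets differed by −0.17 and −0.01. At these levels a difference between the groups was not detectable, which does not show that the transcripts were absent.

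Other genes of epithelial junctions had high signals. Of 27 epithelial junction genes, 15 were above background (55.6%, beside 44.6% of all genes). They were led by Ctnnb1 (14.3), Ctnna1 (14.1) and F11r (13.9), which encode β-catenin, α-catenin and the junctional adhesion molecule A. Cdh3 (13.7), which encodes P-cadherin, was far above background where Cdh1 was not, and so was Cdh2 (11.7), which encodes N-cadherin. The tight junction genes Ocln, Cldn3, Cldn4, Cldn6 and Cldn7 were not above background, while Cldn1 (7.76) and Cldn12 (10.95) were. None of the 27 passed at an adjusted or an unadjusted p of 0.05. The 2 with the smallest p above background were Nectin2, with a difference of −0.25 ± 0.15, and Pard6b, with −0.26 ± 0.16.

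Regulators of the epithelial state were mostly dim. Of 20 splicing and transcription factors 4 were above background: Klf4 (11.5), Foxa2 (10.3), Esrp2 (8.68) and Klf5 (7.84). Esrp1, Grhl2 and Elf3, which encode factors that hold the epithelial state, were not, with means of 4.39, 4.87 and 3.90. Of 17 surface proteases, inhibitors and related epithelial genes, Cd24a (12.3) and Muc1 (7.24) were above background. No gene of either list that was above background passed an unadjusted p of 0.05; Prom2, which was not above background (4.62), differed by 0.34 ± 0.14. In contrast 14 of 18 mesenchymal transition factors and markers were above background (77.8%, beside 44.6% of all genes). Among them were Fn1 (18.7), Vim, Sparc, Snai2 (12.3) and Zeb1 (9.25). Snai1 (4.70) was not. None of these 18 passed at an unadjusted p of 0.05 either.

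**Figure D2:**
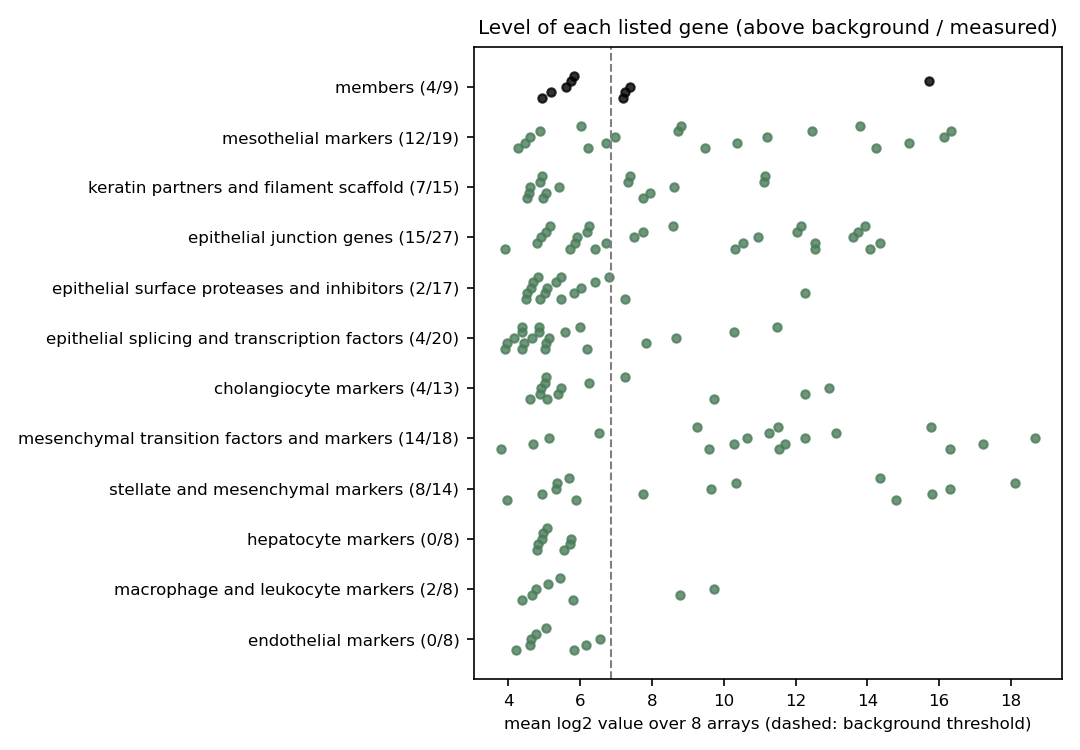
Mean log2 value over the 8 arrays (horizontal axis) for every gene of the 9 studied genes (black) and of 11 marker lists (green), 1 point per gene, with the background threshold of 6.87 dashed and the number above background of the number measured beside each name. The mesothelial list has 12 of 19 genes above the line and the mesenchymal list 14 of 18, whereas the hepatocyte and endothelial lists have none.

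The zinc finger repressors encoded by Snai2 and Zeb1 bind the E-box CACCTG, so the promoters of the members were searched for it on both strands. RefSeq promoter windows of GRCm38.p6, covering the 250 bases before the gene start, were held for 5 of the 9 genes; Msln, Krt19, Sox9 and Cdh1 had no entry. CACCTG lay in 4 of these 5 windows, 44 bases before the start of Krt7, 111 before that of Krt8, 214 before that of Krt18 and both 187 and 19 before that of Epcam. The Upk3b window held none. Of 32851 windows of this length 17.2% held it. The windows of Upk3b, without an E-box, and of 3 of the genes with an E-box are printed. The E-box (CACCTG, or CAGGTG where it lies on the other strand) is in capitals.
Upk3b, chr5:136038246-136038495, + strand: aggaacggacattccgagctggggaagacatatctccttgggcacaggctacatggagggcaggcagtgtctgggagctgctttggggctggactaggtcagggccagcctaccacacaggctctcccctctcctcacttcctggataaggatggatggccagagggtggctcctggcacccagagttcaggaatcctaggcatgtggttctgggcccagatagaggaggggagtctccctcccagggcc
Krt8, chr15:102004343-102004592, - strand: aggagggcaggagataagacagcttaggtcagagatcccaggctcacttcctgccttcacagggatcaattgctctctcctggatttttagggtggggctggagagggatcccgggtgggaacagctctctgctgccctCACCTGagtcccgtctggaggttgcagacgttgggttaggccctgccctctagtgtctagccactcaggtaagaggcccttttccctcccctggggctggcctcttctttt
Krt18, chr15:102027966-102028215, + strand: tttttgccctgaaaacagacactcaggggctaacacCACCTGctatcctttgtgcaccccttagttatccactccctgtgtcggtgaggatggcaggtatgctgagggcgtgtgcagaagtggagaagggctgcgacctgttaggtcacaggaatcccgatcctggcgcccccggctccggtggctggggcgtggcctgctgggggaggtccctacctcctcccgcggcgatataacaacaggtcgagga
Epcam, chr17:87635729-87635978, + strand: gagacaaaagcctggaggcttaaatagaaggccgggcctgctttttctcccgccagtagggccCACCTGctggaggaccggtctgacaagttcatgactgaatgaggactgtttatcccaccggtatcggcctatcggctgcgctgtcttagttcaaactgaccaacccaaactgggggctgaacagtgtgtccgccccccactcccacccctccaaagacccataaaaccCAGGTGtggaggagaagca

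The members do not divide by this motif as they do by level, since Krt8 holds it and was above background. CACCTG was 1 of 6 motifs searched, and the motifs were chosen with the levels known. GGAATG, the motif of TEAD factors, occurred once in the Upk3b window and in 12.6% of all windows. A match describes the letters of a window and is not evidence of binding.

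Sox9 had the only unadjusted p under 0.05 among the 9 genes. It read 7.58, 7.52, 7.65 and 7.06 on the siBNC2 arrays, against 7.32, 7.06, 7.04 and 6.28 on the siCTRL arrays. Array 4 was the lowest in both groups, and siBNC2 array 4 lay within the siCTRL range, so that the groups overlapped. The mean was 7.45 ± 0.27 in siBNC2 and 6.92 ± 0.45 in siCTRL. The difference was 0.53 ± 0.23 (SE) with a 95% interval of 0.02 to 1.03, or 1.44-fold. As for Msln, these levels lie close to the background threshold of 6.87, where a change in transcript is compressed on the log2 scale. The limma p was 0.0419, with an adjusted p of 1.00, and the exact permutation p was 0.0857. With the array number fitted as a block, the limma p was 0.0035 (adjusted p 0.755). Leaving out 1 array at a time, the limma p stayed under 0.05 without siBNC2 array 4 (0.0168) or siCTRL array 1 (0.0187) and was 0.0527 to 0.102 without any of the other 6. Without siCTRL array 4 the difference was 0.31.

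Genes that work with SOX9 were measured beside it. Of 18 partners and targets 4 were above background: Notch2 (12.7) and Jag1 (8.25), which encode a receptor and a ligand of the Notch pathway, Hes1 (9.27), its transcriptional target, and Sox4 (11.1), a related factor. The cartilage partners and targets Sox5, Sox6, Acan, Col2a1 and Col11a2 were not above background. None of the 18 passed at an unadjusted p of 0.05, with 9 higher and 9 lower in siBNC2. Of 13 cholangiocyte markers measured, 4 were above background, with Anxa4 (12.9) the highest, whereas Cftr, Pkhd1, Aqp1 and Sctr were not, and none passed at an unadjusted p of 0.05.

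Over the 9 genes, 0 passed limma at an adjusted p of 0.05, as did 0% of the 22180 genes tested. At an unadjusted p of 0.05, 1 of the 9 passed, beside 3.19% of all genes. None of the 9 had groups that did not overlap, beside 2.16% of all genes. The mean was higher in siBNC2 for 4 genes and lower for 5, and the median difference was −0.01, beside 0.01 over all genes. For the 5 genes not above background the differences ran between −0.09 and 0.22, and their 95% intervals between −0.63 and 0.60. The silenced gene itself, Bnc2, read 7.07, 6.78, 6.72 and 8.18 on the siBNC2 arrays, against 8.26, 8.41, 8.37 and 9.03 on the siCTRL arrays, with no overlap and a difference of −1.33 ± 0.31 (SE). siBNC2 array 4 had the highest Bnc2 value of its group. As these are bulk samples, fewer cells that carry a transcript and less of it per cell cannot be told apart.

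**Figure D3:**
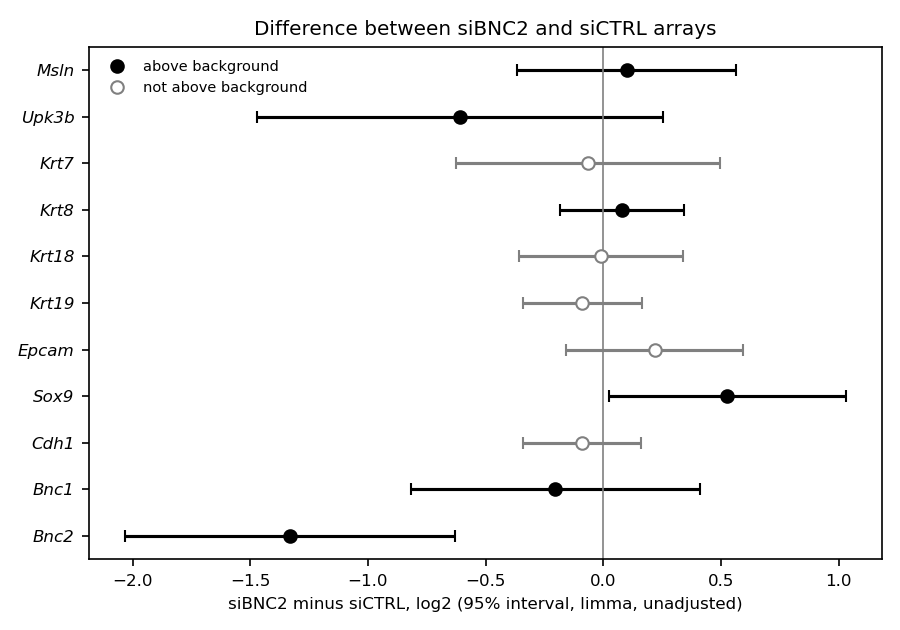
Difference between siBNC2 and siCTRL (siBNC2 minus siCTRL, log2, horizontal axis) for the 9 genes, Bnc1 and Bnc2, with unadjusted 95% limma intervals; filled points are above background and open points are not. The interval of Sox9 begins at 0.02, those of the other 8 genes and of Bnc1 include 0, and Bnc2 lies at −1.33.

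The relation of the 9 genes to Bnc1 was then taken array by array. Bnc1 read 14.02, 13.81, 13.86 and 14.92 on the siBNC2 arrays and 14.04, 14.02, 14.52 and 14.85 on the siCTRL arrays. The arrays numbered 4 were the highest of both groups, the groups overlapped, and the difference was −0.20 ± 0.27. Among the 9 genes the correlation with Bnc1 over the 8 arrays ran between r = −0.79 and r = 0.64. The exact permutation p was under 0.05 for 2 of 9 genes, beside 18.0% of all genes, and the adjusted p was under 0.05 for 0 of 9, as for 0% of all genes.

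The pair with an unadjusted p under 0.05 ran against Bnc1. Sox9 had r = −0.79 (rho = −0.76; exact permutation p = 0.0146, adjusted p = 0.171), and Msln had r = −0.77 (rho = −0.81; exact permutation p = 0.0267, adjusted p = 0.213). The 2 arrays farthest from the median of Bnc1 were both arrays numbered 4. Without them r was −0.72 for Sox9 and −0.20 for Msln over 6 arrays, so the relation of Msln rests on those arrays. With the means of the group and of the array number both removed, r was −0.083 for Sox9 and 0.18 for Msln, given without a p. These values rest on few degrees of freedom and do not settle whether either relation is separate from the array numbers. Genes outside the members moved with array number 4 too: Acta2, the smooth muscle actin of myofibroblasts, was lowest there in siBNC2 (14.80) and in siCTRL (14.08), and Pdgfra, a receptor of fibroblasts, was highest there in siBNC2 (15.53) and in siCTRL (15.11). Their part in these relations was not tested. Upk3b ran with Bnc1, at r = 0.64 (rho = 0.74; exact permutation p = 0.0751, adjusted p = 0.341) and at 0.65 without both arrays numbered 4. Msln and Upk3b thus had opposite signs with Bnc1, neither with an adjusted p under 0.05. The r between them was −0.72 (exact permutation p = 0.0410, adjusted p = 0.550). Other genes of the mesothelial list above background also had both signs with Bnc1. The r was 0.94 for Gpm6a, 0.81 for Nkain4, 0.79 for Fmod, 0.78 for Rspo1, 0.64 for Wt1, 0.62 for Lrrn4 and 0.51 for Tm4sf1. It was 0.0031 for Tmem151a, −0.47 for Upk1b, −0.85 for Pdpn and −0.93 for Cav1.

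The other 6 genes had r with Bnc1 of −0.41 (Krt8), −0.34 (Krt18), −0.18 (Krt7), −0.0032 (Cdh1), 0.32 (Krt19) and 0.38 (Epcam), and no unadjusted p under 0.05. The sign of Epcam and Krt19 turned without both arrays numbered 4, to −0.60 and −0.09. The 5 genes above background that ran closest to Bnc1 were Rnf170, Dhx57, Zfp57, Golph3l and Ttc3, with r between 0.98 and 0.99 and adjusted p between 0.0832 and 0.0953, and none of them is a mesothelial or epithelial marker of the lists used here. Bnc2 had r = 0.72 with Bnc1.

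**Figure D4:**
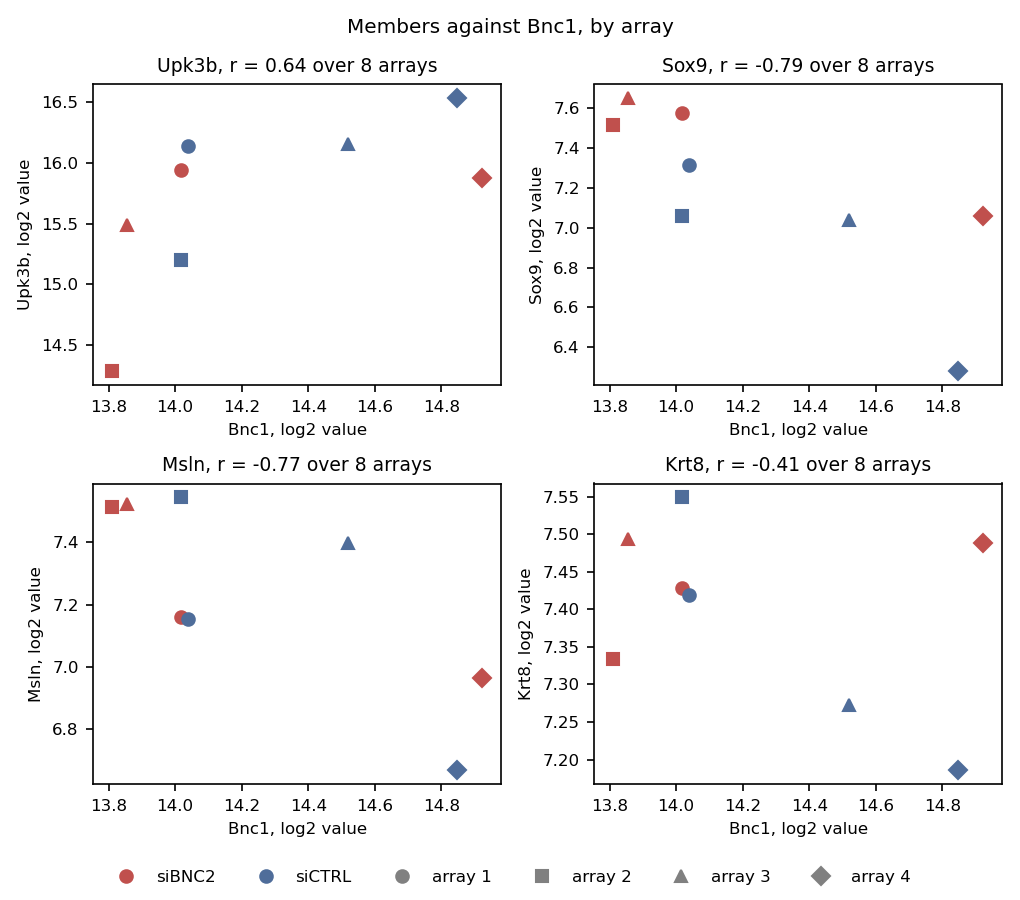
Log2 value of Upk3b, Sox9, Msln and Krt8 (vertical axes) against that of Bnc1 (horizontal axis) on the 8 arrays, with siBNC2 in red, siCTRL in blue and a marker shape for each array number. Both arrays numbered 4 lie at the right of each panel, at 14.92 in siBNC2 and 14.85 in siCTRL for Bnc1, and carry the lowest values of Sox9 and Msln of their groups.

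The genes of the mesothelial list above background were set beside Upk3b in the same way, a relation chosen after the values were seen. Lrrn4 ran with Upk3b at r = 0.98 (rho = 0.95; exact permutation p = 9.9e-05, adjusted p = 0.293), with the array numbered 2 lowest for both in each group. Wt1 ran with it at r = 0.93 (rho = 0.79; adjusted p = 0.358), Rspo1 at 0.85 and Gpm6a at 0.82, and 8.86% of all genes had an unadjusted p under 0.05 with Upk3b, while 0% had an adjusted one. The 2 arrays farthest from the median of Upk3b were both arrays numbered 2, and without them r was 0.94 for Lrrn4 and 0.66 for Wt1 over 6 arrays. After removal of the group means r was 0.98 for Lrrn4 and 0.96 for Wt1. With the means of the array number removed as well, r was 0.70 for Lrrn4 and 0.89 for Wt1. Pdpn (r = −0.36), Tm4sf1 (−0.19) and Cav1 (−0.67) did not share the direction. Upk1b, the other bright uroplakin, had r = 0.27. Its r was 0.97 without both arrays numbered 4 but −0.17 without both arrays numbered 2. Leaving out 1 array at a time, it ran from −0.029 to 0.55. Gpm6a also ran with Bnc1 (r = 0.94, adjusted p = 0.0940), and Cav1 ran against it (r = −0.93, adjusted p = 0.0989).

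Krt8 was the anchor for the epithelial members. Its correlation with the other 8 genes ran between r = −0.61 (Cdh1) and r = 0.57 (Sox9), with none of the 8 at an unadjusted p under 0.05, beside 3.00% of all genes. Krt18, its filament partner, had r = −0.02 (exact permutation p = 0.960), a value over signals of which Krt18 was not above background. The 2 arrays farthest from the median of Krt8 were siCTRL arrays 3 and 4, and without them the sign turned for Sox9, which had −0.51. The genes above background closest to Krt8 were Ror2 (r = 0.85), Cd300ld3, Shb, Gm9372 and Rhno1, with an adjusted p of 0.999.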

How the data were processed

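RNA of 8 EMS404 samples was hybridised to Affymetrix mouse gene arrays, 1 per sample. The authors ran Affymetrix Power Tools through GIANT (GC correction, scaling, RMA) and deposited log2 values per probe set, 41345 in all. The base of the logarithm is taken from RMA, since no source states it. Quantile normalization removes a shift shared by most genes. The genome build of the array annotation is not given in the sources used here. The platform annotation paired 23521 probe sets with 1 symbol (1820 with several, 16004 with none), which were averaged into 22180 genes. No pair of arrays was identical.

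The groups were set against each other with limma 3.58.1 under R 4.3.3 (group as the only term, two-sided, Benjamini-Hochberg over all genes). They were also compared by exact permutation over the 70 arrangements of the arrays (Python 3.11.15 with numpy 2.4.6). Pearson's r over 8 arrays was tested by all 40320 pairings, adjusted over all genes for each anchor gene. ± is an SD beside a group mean and an SE from limma beside a difference. Scripts were tested on simulated data.

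Members, lists and tests were chosen with earlier results of these data known. Named are the 9 members, Bnc1, Bnc2, for each list the 2 genes above background with the smallest p, and the 5 genes above background closest to Bnc1 and to Krt8; other genes were chosen after their values were seen. The alternatives were another normalization, centring, low-value filter, probe set rule, prior and weighting, the replicate block, other backgrounds, rank correlation and leaving arrays out. Relations to Upk3b were added after the data were seen.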

Additional observations from a re-analysis of the deposited data

Results flagged for a closer look

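In 6 of 80 groups of 4 arrays, over the 40 genes the rule names, 1 array stood far from the other 3 of its group (gap over range above the 95% critical value of Dixon's test, which chance passes in about 5% of groups). None of the 9 mesothelial and epithelial genes was among them. On siBNC2 array 4, Cdh11, which encodes a mesenchymal cadherin, read 14.21, while the other siBNC2 arrays read 11.996, 12.11 and 12.28; it also read highest, at 14.54, on siCTRL array 4. On siBNC2 array 4, genes closest to Bnc1 stood apart too: Ttc3 at 14.58, Dhx57 at 11.19 and Rnf170 at 7.999. They were named because they ran closest to Bnc1, which read 14.92 there and 13.81 to 14.02 on the other siBNC2 arrays. Their standing apart is thus tied to that choice, and the 5% rate cannot be applied to them. That array also had the highest Bnc1 and Bnc2 values of the siBNC2 group. Esrp2, an epithelial splicing factor, read 9.17 on siCTRL array 4, and Jag1, a Notch ligand, read 9.24 on siCTRL array 3. The cause was not tested.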

How the results depend on the processing

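Under the alternatives run, 0 of the 9 genes and 0 of all genes passed an adjusted p of 0.05. An unadjusted p under 0.05 was held by 708 genes as reported, 312 with the filter at the 40th percentile, 839 with array weights, 589 to 1099 with 1 array left out and 1534 of all probe sets. The methods of the study say that compared groups were handled together in each round of in vitro replicates, but no source ties the numbers on the arrays to rounds, so whether they pair the samples is not settled. Deviations from the group means correlated at 0.39, 0.42, −0.0010 and 0.67 for numbers 1 to 4, and 5 of 8 arrays correlated best with their own number. With the replicate block, 0 genes passed an adjusted p, 1207 an unadjusted one, and the limma p was 0.0028 for Upk3b and 0.0035 for Sox9 (adjusted p 0.706 and 0.755). Within the 4 numbers Upk3b was lower and Sox9 higher in siBNC2 each time. Lrrn4 and Cldn15 were also lower, and Krt80 higher, in siBNC2 within each number. Lrrn4, Cldn15 and Krt80 were named for their small p. Upk3b and Sox9 had the smallest p of the 9 genes with the block. Their shared direction within the numbers is thus tied to that choice. The share of all genes with the same direction within each number was not counted, so these directions are not separate evidence of a difference. Unless the block is named, the p-values in the report are those without it.

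Of the 9 genes, 1 was above background at the 99th percentile of the receptor genes. Of 173 alternatives for a difference 11 turned its sign, and of 320 for a correlation 37 did. The difference turned to 0.011 for Krt7 and 0.031 for Krt18 with array weights, and to 0.085 and 0.063 without both arrays numbered 4. Leaving out each array in turn, it ran from −0.075 to 0.22 for Msln, −0.27 to 0.15 for Krt7 and −0.10 to 0.084 for Krt18.

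The r with Bnc1 turned to 0.13 for Cdh1 with quantile normalization again and 0.014 with median centring, and, after removal of group and number (replicate block), to 0.18 for Msln, 0.11 for Krt18 and −0.74 for Epcam. With that block it kept its sign but was −0.083 for Sox9, 0.30 for Upk3b, −0.063 for Krt8, −0.94 for Krt7 and −0.79 for Cdh1. Without both arrays numbered 4, which are also the farthest from the median of Bnc1, it was −0.091 for Krt19 and −0.60 for Epcam. Leaving out each array in turn it ran from −0.82 to 0.52 for Cdh1.

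The r with Krt8 turned to 0.048 for Krt18 and 0.071 for Krt19 as Spearman's rho, to 0.093 for Krt19 after removal of the group means, and to 0.21 for Upk3b and 0.25 for Krt19 with the replicate block. Without both arrays numbered 4 it was 0.31 for Krt7, 0.18 for Krt18, 0.40 for Krt19 and 0.10 for Cdh1, and without the 2 arrays farthest from the median of Krt8 it was 0.38 for Upk3b, 0.32 for Krt19 and −0.51 for Sox9. Leaving out each array in turn it ran from −0.075 to 0.65 for Msln, −0.41 to 0.24 for Krt7, −0.24 to 0.20 for Krt18, −0.57 to 0.42 for Krt19, −0.0034 to 0.53 for Epcam and −0.0012 to 0.73 for Sox9. The cause was not tested. Signal over background limits Krt7, Krt18, Krt19, Epcam and Cdh1, where a small change in transcript would not show.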
